A study of Mus musculus with 4 samples.

Results

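The receptors for interleukin-1 (IL-1), IL-18 and IL-33 were examined as 6 genes, Il1r1, Il1r2, Il1rap, Il1rl1, Il18r1 and Il18rap, chosen by name as the ligand-binding and accessory chains of these receptors. They are 6 of 18191 gene names in the deposited data, and all 6 were tabulated in both comparisons. They were measured in ILC3s, the group 3 innate lymphoid cells, from small intestine of mice. These lymphocytes lack rearranged antigen receptors and are a source of IL-22 and IL-17. There were 4 groups with 1 library each. The KO group was ILC3s from mice without IL-17D (Il17d-KO), and the WT group was ILC3s from wild-type mice. The other two groups were CD93-positive and CD93-negative ILC3s of wild-type mice. All mice were at steady state. Before the CD93 sort the suspension was held in culture for 12 h with no stimulus, and the labels attach that protocol to every library. The sort took live cells with low CD45 and high CD90.2 that lacked lineage markers such as CD3. The sources used here do not give strain, age, sex, the number or pooling of mice, or how the knockout was made. Il17d expression was not analysed here and thus gives no check of which library is the knockout.

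IL-1 binds IL-1 receptor type 1, encoded by Il1r1, which then recruits the accessory protein encoded by Il1rap. The assembled receptor signals through its intracellular TIR domains and the adaptor MyD88 to NF-kB and MAP kinases. IL-18 uses the alpha chain encoded by Il18r1 with its own accessory chain from Il18rap, and IL-33 uses ST2, encoded by Il1rl1, again with the Il1rap product. Il1r2 encodes a decoy that binds IL-1 but lacks the TIR domain. In the gut, IL-1 made by myeloid cells is a known stimulus of ILC3s for IL-22 and GM-CSF. IL-18 receptors are prominent on natural killer (NK) cells and type 1 innate lymphoid cells (ILC1s), and ST2 on type 2 innate lymphoid cells (ILC2s), regulatory T cells and mast cells.

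Of the 6 genes, 5 lie side by side on chromosome 1 and are all on the plus strand (mm10, GENCODE M21). From the centromeric end the order was Il1r2 (ENSMUSG00000026073.13; chr1:40074079-40125231), Il1r1 (ENSMUSG00000026072.12; chr1:40225080-40317257), Il1rl1 (ENSMUSG00000026069.15; chr1:40429570-40465415), Il18r1 (ENSMUSG00000026070.15; chr1:40465552-40500854) and Il18rap (ENSMUSG00000026068.11; chr1:40515362-40551705). Il1rl2, the receptor gene for IL-36, sits between Il1r1 and Il1rl1. Il1rap (ENSMUSG00000022514.14; chr16:26581704-26730117) is on another chromosome. The longest coding sequence of the decoy gene Il1r2 had 410 codons. Those of the other receptor genes had 537 (Il18r1), 567 (Il1rl1), 576 (Il1r1), 614 (Il18rap) and 685 (Il1rap). Coding transcripts of Il1rl1 ranged from 65 to 567 codons and those of Il1rap from 360 to 685. A gene-level value adds membrane-bound and soluble forms of these receptors together.

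The sequences upstream of the 4 receptor genes with the most reads are shown because Il1r1 and Il1r2 were the higher and Il18r1 and Il18rap the lower ones in the CD93 comparison. They are the part, outside annotated exons, of the 250 bases before the first start listed for each gene (RefSeq, GRCm38.p6). For Il18r1 that part is the whole gap of 136 bases between it and Il1rl1. Capitals mark the E-box letters CACGTG.
Il1r2, chr1:40085852-40085984, plus strand: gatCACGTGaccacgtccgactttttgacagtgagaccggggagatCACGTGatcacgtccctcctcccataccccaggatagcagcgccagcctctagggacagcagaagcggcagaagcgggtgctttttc
Il1r1, chr1:40224830-40225079, plus strand: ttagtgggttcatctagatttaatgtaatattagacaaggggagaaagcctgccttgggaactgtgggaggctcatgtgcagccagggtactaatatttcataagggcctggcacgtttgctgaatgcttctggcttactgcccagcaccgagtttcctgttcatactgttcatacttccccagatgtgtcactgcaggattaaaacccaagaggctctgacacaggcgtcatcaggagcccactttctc
Il18r1, chr1:40465416-40465551, plus strand: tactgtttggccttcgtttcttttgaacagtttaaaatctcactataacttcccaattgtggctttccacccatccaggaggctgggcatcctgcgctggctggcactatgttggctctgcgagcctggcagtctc
Il18rap, chr1:40515112-40515361, plus strand: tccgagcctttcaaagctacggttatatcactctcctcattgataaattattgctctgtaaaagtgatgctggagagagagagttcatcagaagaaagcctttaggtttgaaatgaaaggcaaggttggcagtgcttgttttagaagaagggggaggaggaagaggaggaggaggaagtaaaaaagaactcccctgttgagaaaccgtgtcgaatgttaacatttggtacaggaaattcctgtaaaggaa

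Motifs, 5 in all, were searched on both strands of the full 250-base windows. They were the E-box (CACGTG), a T-box element (GGTGTGA), an AP-1 element (TGANTCA), a STAT element (TTCNNNGAA) and the NF-kB consensus. The Il1r2 window lies inside the annotated gene, before a start downstream of the outermost one. It held 2 E-boxes, starting 238 and 195 bases before the start, and 1 STAT element at 111 bases, which crosses into an annotated exon and is not capitalised. E-boxes were in 6.05% and STAT elements in 7.18% of 27025 mouse promoter windows of the same length. The windows printed for Il1r1, Il18r1 and Il18rap held no match to any of these letters. Among the starts not printed, the third of Il18r1 held 2 STAT elements that do not overlap. A T-box element was in 3.31%, AP-1 in 6.87% and the NF-kB consensus in 4.78% of all windows. These matches describe letters in short windows and were not tested as binding sites.

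Levels are given as FPKM, which divides the fragments of a gene by its length and by the library's total. Genes of one library can therefore be set beside each other, as far as that length fits the transcripts expressed. The recovered reads rest on the union length of all annotated exons, 1908 bases for Il1r2 and 6363 for Il1r1. The scaling total was 27002581 for KO and 26087274 for WT, and for the CD93 pair it was 11712846 (positive) and 11790580 (negative). The 2 pairs of libraries were tabulated separately, so each comparison stays within its pair. Differences are log2 of (FPKM + 1) between the libraries of a pair, a scale that understates differences of low genes. A gene was measured where either library reached an FPKM of 1, and a difference of 1 in log2, or 2-fold, was counted. Values in parentheses after a fold or ratio are 95% exact intervals from recovered reads. They cover the counting error of reads only. Amplified reads that carry no molecular identifier can repeat one molecule, so the intervals can be too narrow for molecules. With 1 library per group no difference has a replicate check and no test was possible. In bulk RNA, fewer cells of a type and less RNA per cell cannot be told apart. All 10 ILC3 markers were tabulated and above 0 in both pairs. Their summed FPKM was 13043 (KO), 17352 (WT), 9437 (CD93-positive) and 2724 (CD93-negative), most of it from Il22. Without Il22 the other 9 markers, a sum chosen after seeing the data, gave 1272 (KO), 1250 (WT), 1503 (CD93-positive) and 1069 (CD93-negative), so that KO was no longer the lower of its pair.

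In the KO and WT libraries the decoy was the most abundant of the 6 receptor transcripts. The FPKM of Il1r2 was 86.0 in KO and 184 in WT, where it ranked 821 and 421 among 15242 rows. Il1r1 stood at 18.3 (KO) and 21.2 (WT). The decoy transcript therefore stood 4.71-fold (4.50 to 4.94) above Il1r1 in KO and 8.69-fold (8.35 to 9.03) above it in WT. Il1r2 had 4433 reads in KO and 9152 in WT, against 3136 and 3514 of Il1r1. The rest of each ratio comes from the gene lengths, which the intervals do not cover. Il18r1, the IL-18-binding chain, stood at 19.6 (KO) and 16.1 (WT). Its partner Il18rap had 11.3 and 15.6. In WT the ratio of Il18r1 to Il18rap was 1.03 (0.971 to 1.09), so these neighbours in the order of levels did not differ beyond counting error. In KO, Il18r1 and Il1r1 were close, with a ratio of 1.07 (1.02 to 1.13). Il1rap, the shared accessory chain, stood at 1.92 (KO) and 1.13 (WT), more than Il1rl1 but far below the other 4. Il1rl1, which encodes ST2, had 0.161 and 0.0222, from 30 and 4 reads, and was not measured in this pair.

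In the CD93 libraries the IL-18-binding chain led. Its gene Il18r1 stood at 66.5 (CD93-positive) and 179 (CD93-negative), ranks 616 and 142 among 12546 rows. Il1r1 had 47.4 and 23.4, and Il18rap had 40.8 and 56.3. Il1r2 came after these genes in both libraries, with 35.8 and 15.2. The decoy transcript was thus below Il1r1 in both, at 0.755 (0.698 to 0.815) of its level in the positive library and 0.648 (0.576 to 0.728) in the negative one. Il1rap had an FPKM of 0.797 and 0.627 and was not measured in this pair. Il1rl1 had 0.334 and 1.27, from 27 and 103 reads. In CD93-positive ILC3s, Il18rap exceeded Il1r2 by 1.14-fold (1.05 to 1.23), the smallest step in the order of levels of that library. In CD93-negative ILC3s the smallest step was from Il1r1 to Il1r2, at 1.54 (1.37 to 1.74).

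**Figure D1:**
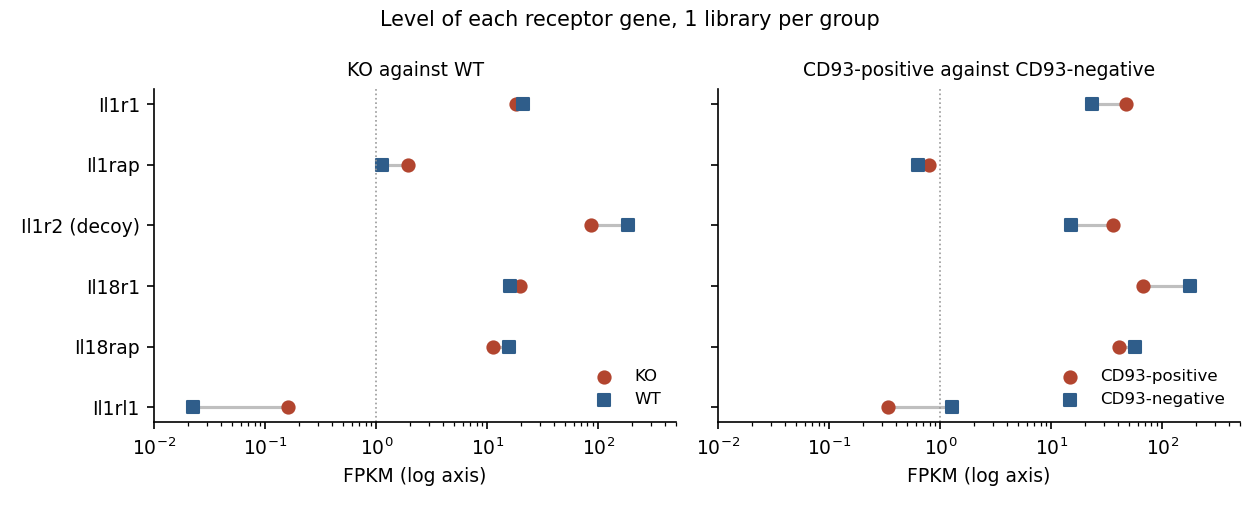
FPKM on a log axis for each receptor gene, with 1 point per library, circles for KO or CD93-positive and squares for WT or CD93-negative ILC3s. Il1r2 lies farthest right in the KO and WT panel (86.0 and 184) and Il18r1 in the CD93 panel (66.5 and 179), while Il1rap and Il1rl1 lie near or below the dotted line at an FPKM of 1.

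The first comparison asks how ILC3s without IL-17D differ from wild-type ones. Among the 5 measured receptor genes the decoy had the largest difference, with a lower level in KO. The levels of Il1r2, 86.0 (KO) and 184 (WT), rest on 4433 and 9152 reads. Its level was 2.14-fold lower in KO (2.06 to 2.22), with a log2 difference of -1.09. Of 5 measured receptor genes, 1 was at least 2-fold lower and 0 were higher. Over all 12376 measured genes of this pair 29.3% were at least 2-fold apart, 16.6% higher and 12.7% lower in KO, so 1 gene in 5 is near the background. The share of genes at least 2-fold apart in this pair fell with read depth. Of the 592 measured genes with at least 10000 reads over the pair, the range that holds Il1r2, 4.39% were at least 2-fold apart. The 2-fold call of Il1r2 ended when both libraries were scaled to a common sum, where its difference was -0.92. With the sum set to the mean of the pair and the same genes measured, the median of all genes moved from 0.01 to 0.157.

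The chain that binds IL-1 for signalling, Il1r1, was 1.16-fold lower in KO (1.11 to 1.22), from 3136 and 3514 reads. Its log2 difference of -0.20 was -0.041 with a common sum. Il1rap, the accessory chain, went the other way, with 1.92 and 1.13 and a ratio of 1.70 (1.48 to 1.95), from 589 and 335 reads. In the read range of Il1rap, from 100 to 1000 reads over the pair, 40.8% of 3668 genes were at least 2-fold apart. Il18r1 was 1.22-fold higher (1.15 to 1.30) and Il18rap 1.38-fold lower in KO (1.31 to 1.47). The 2 chains of the IL-18 receptor thus had opposite directions. Between 1000 and 10000 reads, the range of Il1r1, Il18r1 and Il18rap, 13.5% of 3576 genes were at least 2-fold apart. Il1rl1 had 30 reads in KO and 4 in WT, a ratio of 7.25 (2.55 to 28.3) at levels under an FPKM of 1.

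Ratios of genes within a library do not depend on how the library was scaled. The Il1r2 to Il1r1 ratio, decoy over signalling receptor, was 4.71 in KO and 8.69 in WT, a 1.84-fold lower ratio in KO (1.73 to 1.96). The Il18r1 to Il18rap ratio was 1.74 in KO and 1.03 in WT, 1.69-fold higher in KO (1.56 to 1.84). The Il1r1 to Il1rap ratio was 9.51 and 18.7, 1.97-fold lower in KO (1.70 to 2.28).

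Il1r2 is also known from neutrophils and monocytes, so markers of these cells were set beside it. Of 10 such markers 3 were measured, Lyz2, Cd68 and Cd14, and all 3 were at least 2-fold higher in KO. The summed FPKM of these markers was 59.1 in KO and 11.8 in WT. The other 7 markers, among them the neutrophil genes S100a8, S100a9, Csf3r and Cxcr2, were not tabulated in this pair. Over all measured genes of this pair 16.6% were at least 2-fold higher and 12.7% lower in KO. With 100 to 1000 reads over the pair, 40.8% were 2-fold apart. Among T cell markers 4 of 9 measured were at least 2-fold higher in KO (Cd3e, Cd3d, Trac and Cd28) and 0 lower, with sums of 1315 and 933. Cd8a, from 62 and 139 reads, was 2.32-fold lower (1.71 to 3.18), but its difference of -0.60 was within the limit. Of 11 measured ILC1 and NK cell markers, 3 were higher (Klrb1c, Klrd1 and Gzma) and 0 lower, with a median difference of 0.486. Their sums were 1237 and 827, most of it from Nkg7 (881 and 587). Within the limit, Tbx21 was 1.72-fold lower in KO (1.49 to 1.99) and Il12rb2 1.51-fold lower (1.10 to 2.07). Ncr1 and Gzmb had ratios of 1.03 and 1.01. Of 8 measured ILC2 markers 4 were higher (Gata3, Il4, Il17rb and Ccr8) and 1 lower (Areg), with sums of 222 and 132 and 1 marker, Il9r, at 0 in WT. The mast cell gene Cpa3 went the other way, with 0 reads (KO) and 183 reads (WT), at least 63.1-fold lower against 3 reads. Of the 10 ILC3 markers 0 were 2-fold apart. Of 4 measured epithelial markers 2 were higher (Krt8 and Lyz1) and 0 lower, with sums of 151 and 48.1, most of it from Lyz1 (141 and 42.2). Epcam had 2.25 and 2.35. Fabp1, from 24 and 44 reads, was 1.90-fold lower in KO (1.13 to 3.26), within the limit on the scale used. Cd93 was itself 2.12-fold lower in KO (2.04 to 2.20). The part of these other cell types in the receptor values was not tested.

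The second comparison asks how wild-type ILC3s sorted as CD93-positive and as CD93-negative differ. The Cd93 transcript was abundant in both libraries, at 155.0 in the positive and 79.9 in the negative one, from 12122 and 6289 reads. The IL-1 receptors, signalling and decoy, were both higher in CD93-positive ILC3s, and both IL-18 receptor chains and ST2 were lower. Among 5 measured receptor genes Il1r2 was past 2-fold on the higher side, a count of 1, and Il18r1 past it on the lower side, also a count of 1. Over all 10117 measured genes of this pair 4.43% were at least 2-fold apart, 2.49% higher and 1.94% lower in the positive library. As deposited, 252 genes were higher and 196 lower. With the 2 sums set to their average and the same genes measured, an alternative chosen after seeing the data, the counts were 173 and 296, and the median of all genes went from 0.037 to -0.116. With a common sum as in TPM they were 290 and 732 over 11831 measured genes, since that sum also raises the values against the pseudocount and the minimum. The directions of the receptor genes held under that scaling and under the others tried.

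Il1r1, at 47.4 and 23.4, rested on 3536 and 1759 reads and gave a ratio of 2.02 (1.91 to 2.14). Its log2 difference of 0.99 lay just below the limit, and with a pseudocount of 0.1 it was 1.01 and above it. Cd93 had a ratio of 1.94 between the same libraries and Actb one of 1.98 (1.95 to 2.01). The decoy Il1r2 had 35.8 and 15.2, from 800 and 342 reads, a ratio of 2.35 (2.07 to 2.68) and a difference of 1.18. It was 1.05 with a common sum. The Il1r2 to Il1r1 ratio of 0.755 in the positive library was 1.16-fold (1.01 to 1.34) the 0.648 in the negative one, a smaller gap than that of either gene. Of 3 measured markers of neutrophils, monocytes and macrophages 0 were 2-fold apart in this pair, beside 4.43% of all measured genes. All 3 were higher in the positive library, Cd14 by 1.87-fold (1.48 to 2.37), Lyz2 by 1.54-fold (0.804 to 3.02) and Cd68 by 1.17-fold (0.977 to 1.41). The 7 tabulated markers of this list summed to 31.9 and 23.1. The part of these cells in the Il1r2 values was not tested. Il1rap had a ratio of 1.27 (0.945 to 1.71), which counting error does not separate from 1. The Il1r1 to Il1rap ratio was 59.6 and 37.4, a change of 1.59-fold (1.17 to 2.15).

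On the scale of log2(FPKM + 1), Il18r1 had the largest difference of the 5 measured receptor genes. Its levels of 66.5 and 179 came from 3752 and 10191 reads. It was 2.70-fold lower (2.60 to 2.80), with a difference of -1.42. Il18rap, the accessory chain encoded next to it, had 40.8 and 56.3 and was 1.38-fold lower (1.32 to 1.45). The alpha chain differed more than its partner. The Il18r1 to Il18rap ratio was 1.63 (positive) and 3.19 (negative), 1.95-fold lower in the CD93-positive library (1.84 to 2.07). Il18r1 stood at 1.40 times the level of Il1r1 in the positive library and at 7.65 times in the negative one, a 5.46-fold lower ratio (5.10 to 5.85). Il1rl1, with 27 and 103 reads, was 3.79-fold lower (2.46 to 6.02). Its difference of -0.76 is held down by the pseudocount, and with a pseudocount of 0.1 it was -1.65 and past the limit.

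Markers of ILC1s and NK cells went with Il18r1. Of 12 such markers 11 were measured. Past 2-fold, 7 were lower in the positive library and 0 higher, beside 1.94% and 2.49% of all measured genes. The 6 with the largest differences were Klrb1c, Il12rb2, Klrd1, Nkg7, Gzma and Tbx21, with a median difference over the 11 of -1.56. The list summed to an FPKM of 485 (positive) and 969 (negative), most of it from Gzmb (396 and 708), which was within the limit. Of the tabulated markers 0 were at 0, and Eomes was not tabulated. Of 4 measured T cell markers, 3 were lower (Cd3d, Cd3g and Ctla4). Their list summed to 30.6 and 97.1, most of it from Ctla4 (27.7 and 86.5). Of 7 measured ILC2 markers, 1 was lower, with sums of 30.2 and 40.8. Of the mast cell markers, Cpa3 had 1 read and 22 reads, and Mcpt1 had 0 and 11. Among the 10 ILC3 markers 2 were higher, Il22 being one of them, and 0 lower. Of 2 measured epithelial markers Epcam was 4.07-fold lower (2.73 to 6.24), from 31 and 127 reads, and the list summed to 11.6 and 22.7. The part of these other cells in the values of Il18r1 and Il1rl1 was not tested.

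Along chromosome 1 the receptor genes of the CD93 pair fell into neighbouring blocks. Il1r2 and Il1r1 at the centromeric end had ratios of 2.35 and 2.02. Il1rl2 after them had an FPKM of 4.29 and 3.60 and a ratio of 1.19 (1.02 to 1.40). Il1rl1, Il18r1 and Il18rap followed with 0.264, 0.371 and 0.724. Of the flanking genes, Map4k4, a kinase gene before Il1r2, had a ratio of 1.35 (1.30 to 1.41), and Slc9a2, a sodium-proton exchanger gene, one of 1.15 (1.01 to 1.31). Slc9a4, directly after Il18rap, had 10 and 18 reads and was not measured. In the KO and WT pair the higher and lower genes alternated differently, with Il1r2, Il1r1, Il1rl2 and Il18rap lower and Il1rl1 and Il18r1 higher in KO. Map4k4 was 1.77-fold lower in KO (1.62 to 1.94), and Il1rl2, with 1 read (KO) and 278 reads (WT), was 288-fold lower (51.2 to 11406). In the read range of Il1rl2, 100 to 1000 over the pair, 40.8% of genes were at least 2-fold apart.

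**Figure D2:**
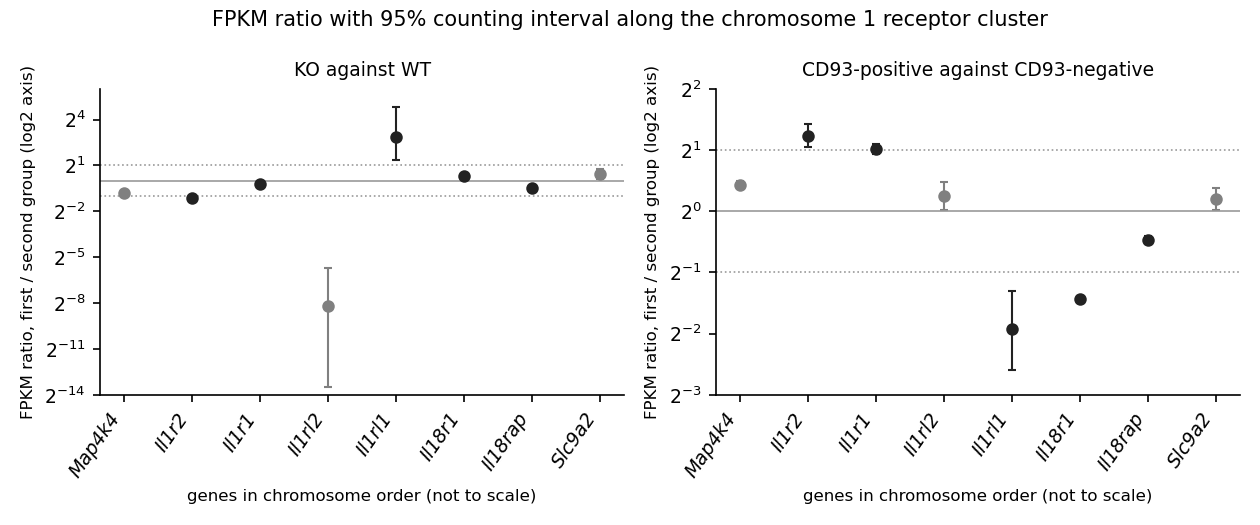
FPKM ratio between the libraries of each pair on a log2 axis, KO over WT at left and CD93-positive over CD93-negative at right, for genes in chromosome order; black points are receptor genes described here, grey points Il1rl2 and flanking genes, and bars are 95% counting intervals. At right Il1r2 (2.35) and Il1r1 (2.02) lie above 1 and Il1rl1 (0.264), Il18r1 (0.371) and Il18rap (0.724) below it, while at left Il1r2 lies at 0.468 and Il1rl2 far below.

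**Figure D3:**
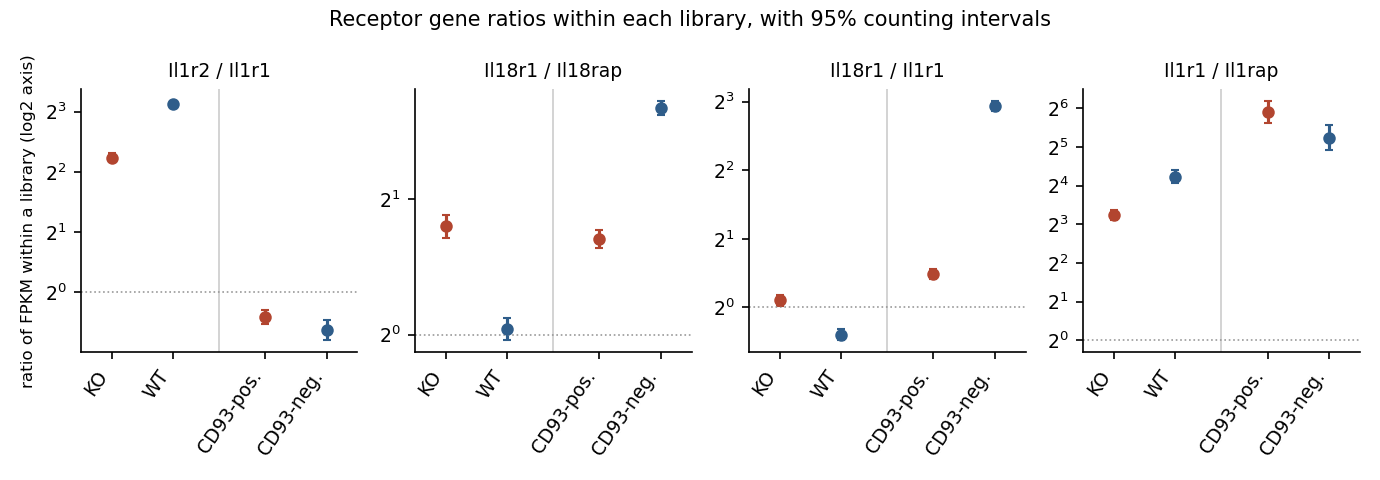
Ratio of FPKM between 2 receptor genes within each library, on log2 axes that differ between panels, with 95% counting intervals; the vertical line separates the 2 pairs, which were tabulated separately. The Il1r2 to Il1r1 ratio is above 1 in KO (4.71) and WT (8.69) and below 1 in both CD93 libraries. Within the CD93 pair the Il18r1 to Il1r1 ratio is higher in CD93-negative (7.65) than in CD93-positive ILC3s (1.40).

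Of 11 listed ligands and soluble inhibitors of these receptors, 3 were tabulated in the KO and WT pair, all 3 of them measured, and 6 in the CD93 pair, 5 of them measured. Il33, the ST2 ligand, was higher in CD93-positive ILC3s, with an FPKM of 13.5 and 3.03 and a ratio of 4.48 (3.61 to 5.60). In the other pair KO had 0 reads of it and WT had 104, so that it was at least 35.9-fold lower against a floor of 3 reads in KO. Lum, a fibroblast gene, followed the same directions, with 11.3 and 3.95 in the CD93 pair and 0 and 119 reads in KO and WT. Dcn, another fibroblast gene, had 2 reads in KO and 146 in WT but 12 and 15 in the CD93 pair. Col1a1 had 18 and 49 reads in KO and WT, and 5 and 11 in the CD93 pair. The part of stromal RNA in the Il33 values was not tested. Il1b, an IL-1 gene, was 3.77-fold higher in KO (2.63 to 5.50; FPKM 2.95 and 0.784), beside the higher myeloid markers given above. In CD93-positive ILC3s it was 1.67-fold lower (1.21 to 2.32). Il18bp, which encodes the soluble inhibitor of IL-18, had 4.65 and 3.76 in KO and WT and 8.83 and 7.04 in the CD93 pair. Il1rn, the IL-1 receptor antagonist gene, had 3.12 and 2.24 in the CD93 pair.

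Of the other IL-1 receptor family genes, Sigirr, which encodes a TIR protein that dampens IL-1 and Toll-like receptor signalling, stood at 27.3 (KO) and 6.75 (WT), 4.05-fold higher in KO (3.68 to 4.45). In CD93-positive ILC3s it was 1.52-fold higher (1.33 to 1.73). Of 18 measured genes of the MyD88 pathway downstream, 0 were 2-fold apart between the CD93 libraries, with a median of 0.007. Over all measured genes of this pair 4.43% were 2-fold apart and the median was 0.037, so the list was near the background. Its largest differences were those of Irak1, a receptor-associated kinase (0.38), and of Peli1, a ubiquitin ligase (-0.61). Irak2, another kinase of this family, was the most abundant gene of the list there, with 119 and 154. Between KO and WT the list's median was -0.068. Of 15 measured genes 2 were past 2-fold on the higher side and 1 on the lower, beside 16.6% and 12.7% of all measured genes. Irak3, which encodes the inhibitory kinase IRAK-M, was 2.57-fold higher (2.37 to 2.79; 21.5 and 8.39) and Tab3, an adaptor of TAK1, 5.29-fold higher (4.21 to 6.72; 2.69 and 0.508). Tirap, a MyD88 adaptor used by Toll-like receptors, had 0 and 168 reads, at least 58.0-fold lower against 3 reads. Other listed genes were also above 0 in 1 library of this pair only. These were Cpa3, Il33 and Lum in WT, and Il9r in KO with 124 reads. Nlrc4 was another, at an FPKM of 0.270 in WT, where whole reads were not recovered. With 100 to 1000 reads over the pair, the range of the others, 40.8% of genes were at least 2-fold apart. The cause of such gaps was not tested. Myd88 itself had 10.7 and 9.79.

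Of the genes that act in the maturation or release of IL-1 and IL-18, 1 of 5 measured was at least 2-fold apart between KO and WT. Of all measured genes of this pair 29.3% were. The 1 listed gene was Gsdmd, the gasdermin D gene, 3.37-fold higher in KO (FPKM 20.5 and 6.08). Casp1, which encodes the IL-1 beta-converting enzyme, had 32.1 and 29.9. In the CD93 pair 0 of 6 were 2-fold apart, beside 4.43% of all measured genes. Nlrp3 was the farthest above (9.47 and 5.37) and Aim2 the farthest below (22.2 and 30.1). The sheddase genes Adam10 and Adam17, whose products cut receptor ectodomains, were within 2-fold in both pairs. Of 12 Toll-like receptor genes, 2 were measured in the CD93 pair, Tlr2 and Tlr3, with 0 of them 2-fold apart. In the KO and WT pair 0 of the 12 Toll-like receptor genes were tabulated.

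**Figure D4:**
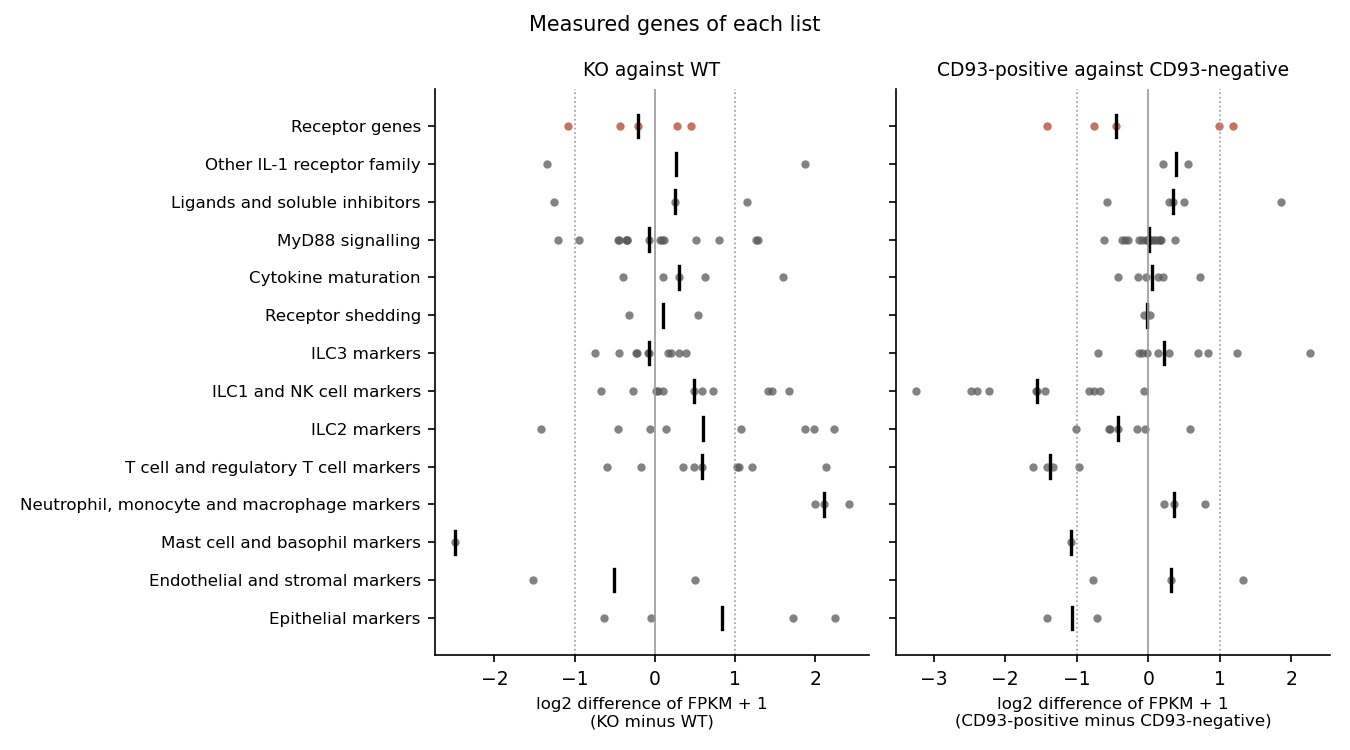
Log2 difference of FPKM + 1 for the measured genes of each list, 1 point per gene, with a bar at the list's median; dotted lines mark 2-fold. In the CD93 panel the 18 genes of MyD88 signalling lie near 0 (median 0.007) and the 11 ILC1 and NK cell markers mostly to the left (median -1.56), while the receptor genes spread from -1.42 to 1.18.

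Genes that lay nearest to a receptor gene were sought over the differences of both pairs, among 2389 protein-coding genes that reached an FPKM of 10 in either library of both pairs. Il1rap and Il1rl1 were left out, since each was measured in 1 pair only. Likeness was the Euclidean distance over 2 log2 differences, KO minus WT and CD93-positive minus CD93-negative. Nearest to Il1r1 was Ramp3, a receptor activity-modifying protein gene (distance 0.0247), followed by Hmgcs1 (0.0481), an enzyme of cholesterol synthesis, and Hmgn1 (0.0863). Nearest to the decoy Il1r2 were Insig1 (0.118), a regulator of sterol synthesis, Smad3 (0.203), a transducer of TGF-beta signals, and Tnfrsf9 (0.218), which encodes 4-1BB. Insig1 had differences of -1.02 and 1.09, and Il1r2 had -1.09 and 1.18. Nearest to Il18r1 were Gimap4 (0.105), a GTPase gene of lymphocytes, Vcpkmt (0.141) and Ctsw (0.161), which encodes cathepsin W of cytotoxic cells. Nearest to Il18rap were Zc3hav1 (0.0462), Sbds (0.0641) and Rpl22l1 (0.0741). These distances describe 2 values per gene and have no test.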

How the data were processed

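RNA of sorted mouse intestinal ILC3s was sequenced as 4 libraries, 1 per group, on a BGISEQ-500 per the series' design text. The deposited values are the authors' FPKM. Bowtie2, featureCounts (Subread), edgeR and DESeq2 and build mm10 are named in the submitters' processing notes. For their versions, order, annotation and strand setting, the sources used here give nothing. Joint tables were used; single-library tables held equal values in all 15242 and 12546 rows. Of FPKM values above 0 with a GENCODE M21 length, FPKM times union exon length gave whole reads within 0.02 for 92.1% (KO), 91.9% (WT), 98.1% (CD93-positive) and 98.2% (CD93-negative). All 6 receptor genes were whole in every library, and the recovery was tested on simulated data. No count test was run, since 1 library per group has no replicate error. Intervals are Clopper-Pearson, or exact conditional intervals for changes of ratios (scipy 1.17.1). Bounds use 3 reads.

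The members and lists were chosen with earlier results of these data known. Named are the receptor genes, list members at least 2-fold apart (at most 6) or with the largest difference each way, genes most like a receptor gene, and chromosomal neighbours. Additional list members are named for their role or level, chosen after their values were seen. Differences are log2 of deposited FPKM plus 1. Pseudocounts, filters, limits and scalings were varied. Protein sequences were not used here. One ILC3 marker, 1 motif and 1 marker of the sort are not reported here.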

Additional observations from a re-analysis of the deposited data

How the results depend on the processing

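No paired analysis was possible because each group had 1 library. No receptor gene changed sign under the pseudocounts of 0.1 and 5, either common sum or the median ratio of 1. With a common sum, the KO minus WT differences were -0.041 (Il1r1), -0.92 (Il1r2), 0.683 (Il1rap), 0.446 (Il18r1) and -0.285 (Il18rap), and 0 receptor genes were 2-fold apart; those of the CD93 pair were 0.836 (Il1r1), -1.51 (Il1rl1), -1.60 (Il18r1) and -0.638 (Il18rap), with 1022 of all genes 2-fold apart against 448. That sum, as in TPM, exceeds the deposited ones, so values rose against the pseudocount and 11831 genes were measured against 10117. With the mean of the pair's sums and the same genes measured, a setting chosen after seeing the data, Il1r1 was -0.04, Il1r2 -0.916, Il18r1 0.435 and Il18rap -0.276 between KO and WT, with 0 receptor genes 2-fold apart, and Il1r1 was 0.817, Il18r1 -1.59 and Il18rap -0.628 in the CD93 pair, with 469 of all genes 2-fold apart. With a pseudocount of 0.1, Il1rap was 0.715 between KO and WT, Il1rl1 was -1.65 in the CD93 pair, and the CD93 pair had 4 receptor genes and 783 of all genes past 2-fold. With a pseudocount of 5, the KO and WT pair gave 0.175 (Il1rap), -0.34 (Il18rap) and 821 genes against 3627, and the CD93 pair 0.883 (Il1r1) and 169 genes. An FPKM minimum of 5 left 1519 genes 2-fold apart between KO and WT. At 3-fold, 0 receptor genes remained in either pair, with 1556 genes (KO and WT) and 110 (CD93) of all. As ratios of FPKM + 1, the Il1r1 to Il1rap ratio in KO was 0.634 of that in WT against 0.508. With Il1r1 and Il1rap summed, the decoy ratio in KO was 0.517 of that in WT against 0.543, and in the CD93 pair 1.18 against 1.16. Of 56 counts of list genes, 16 moved by over 1.5 times at 3-fold, 14 with a pseudocount of 5, 11 with an FPKM of at least 5, 7 with a common sum and 5 with a pseudocount of 0.1. Apart from what follows from the pseudocount, sum or limit itself, the cause was not tested. Few reads limit Il1rl1 and Il1rap.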
